A study of Homo sapiens with 3 samples.

Results

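The 4 AMPA receptor genes (GRIA1 to GRIA4) and the 5 kainate receptor genes (GRIK1 to GRIK5) were examined for accessible chromatin in human neurons made in culture. A region of the authors' list was assigned to a gene when a summit, the point of highest signal within it, lay in the RefSeq gene body or within 50 kb of either outer end. Of the 65234 regions in the list, 99 met this rule, 35 at AMPA and 64 at kainate receptor genes. No region fell in the windows of more than 1 of these genes.

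The regions were mapped by ATAC-seq, in which the Tn5 transposase cuts accessible DNA and leaves sequencing adapters there, so that open sites collect more sequenced fragments than their surroundings. The cells were neurons of the KOLF2.1J line, which is a widely used line of human induced pluripotent stem cells, carrying human NGN2, a transcription factor that drives neuronal fate, after 14 days of differentiation. The 3 biological replicates all belong to this 1 line and 1 condition, with no untreated or control group, and in the study they served the search for elements that regulate MAPT, which encodes tau. The authors combined the 3 samples into 1 list that carries no value per replicate. The spread between replicates therefore cannot be given, no test over samples was possible, and every value below describes this 1 list. The interval given with a count or density is an exact Poisson 95% interval, which covers counting error only.

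AMPA and kainate receptors are ion channels opened by glutamate, the main excitatory transmitter of the brain. Each channel is a tetramer of subunits: AMPA receptors are built from GluA subunits and carry most fast excitatory transmission, while kainate receptors are built from GluK subunits and act on both sides of the synapse. GRIK1, GRIK2 and GRIK3 encode the low-affinity kainate subunits, which can form channels on their own, and GRIK4 and GRIK5 encode the high-affinity subunits, which need a low-affinity partner. The GluA2 subunit, from GRIA2, makes a channel almost impermeable to calcium after its RNA has been edited.

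Sequence at 5 of the starts is shown first, because these starts mark the extremes of the results: GRIA2 had the start region with the most tags (sequenced fragments at the summit) of the 9 genes, GRIK3 and GRIK5 had the weakest start regions, and GRIK4 had 2 separate accessible starts. Each run covers 250 bases before to 50 bases after a start listed by RefSeq on GRCh38.p14, read 5′ to 3′ on the strand of the gene. Capitals mark matches, on either strand, to 7 short words searched in all promoters: the E-box words CAGATG and CAGCTG, the GC box GGGCGG, the CRE word TGACG, the TATA box TATAAA, and CAGCACC and GGACAG, which are parts of RE1, the element bound by the repressor REST. The runs lie at chr4:157220369-157220668 on the plus strand for GRIA2 (the last of its 3 listed starts), chr1:37034466-37034765 on the minus strand for GRIK3, chr11:120511498-120511797 and chr11:120564184-120564483 on the plus strand for the first and second start of GRIK4, and chr19:42070157-42070456 on the minus strand for GRIK5.
GRIA2: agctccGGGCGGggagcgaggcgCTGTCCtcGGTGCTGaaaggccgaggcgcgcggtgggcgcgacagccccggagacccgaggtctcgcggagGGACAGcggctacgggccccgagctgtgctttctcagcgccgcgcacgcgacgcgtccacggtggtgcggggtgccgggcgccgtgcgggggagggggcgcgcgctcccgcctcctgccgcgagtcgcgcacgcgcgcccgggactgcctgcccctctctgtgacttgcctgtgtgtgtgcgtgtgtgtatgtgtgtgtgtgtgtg
GRIK3: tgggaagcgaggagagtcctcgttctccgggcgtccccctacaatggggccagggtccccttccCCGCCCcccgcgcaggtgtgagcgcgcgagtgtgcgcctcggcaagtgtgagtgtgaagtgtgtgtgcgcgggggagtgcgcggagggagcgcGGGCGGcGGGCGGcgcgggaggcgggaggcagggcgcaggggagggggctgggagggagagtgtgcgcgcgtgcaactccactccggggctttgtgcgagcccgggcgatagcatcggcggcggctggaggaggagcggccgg
GRIK4, first start: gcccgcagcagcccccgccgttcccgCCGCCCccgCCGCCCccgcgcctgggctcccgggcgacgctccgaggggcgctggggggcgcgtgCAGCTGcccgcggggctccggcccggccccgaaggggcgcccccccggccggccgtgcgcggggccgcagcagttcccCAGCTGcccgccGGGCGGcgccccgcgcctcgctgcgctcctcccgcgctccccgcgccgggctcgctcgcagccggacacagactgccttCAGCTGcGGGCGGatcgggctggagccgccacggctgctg
GRIK4, second start: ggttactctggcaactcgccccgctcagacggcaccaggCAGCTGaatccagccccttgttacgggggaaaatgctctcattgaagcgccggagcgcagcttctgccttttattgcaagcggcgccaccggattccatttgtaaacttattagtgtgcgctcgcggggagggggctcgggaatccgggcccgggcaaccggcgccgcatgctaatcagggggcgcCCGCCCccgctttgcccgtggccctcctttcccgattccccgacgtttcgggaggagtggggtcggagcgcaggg
GRIK5: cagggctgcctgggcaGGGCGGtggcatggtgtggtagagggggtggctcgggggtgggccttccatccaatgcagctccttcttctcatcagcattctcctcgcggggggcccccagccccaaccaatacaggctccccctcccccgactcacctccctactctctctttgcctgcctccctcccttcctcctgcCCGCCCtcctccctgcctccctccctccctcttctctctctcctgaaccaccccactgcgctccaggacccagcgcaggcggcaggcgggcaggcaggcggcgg

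All 9 genes had an accessible start, defined as a summit within 1 kb of a start listed by RefSeq, or of an outer end of the gene where none is listed. By the same rule 69.8% of 20037 protein-coding genes had an accessible start, and 85.9% of the 4597 genes at least as long as GRIK5, the shortest of the 9, so that having one was common among genes of this size. The start regions of the receptor genes were mostly below the middle of their kind. Fold enrichment is the authors' ratio of the signal at a summit to a background. It was below the median of all 14002 start regions in the list (9.63) in each of the 10 start regions of the 9 genes (GRIK4 had 2), whose median was 7.49. The tags told the same of 9 of the 10: only the start of GRIA2 stood above the median of 834 tags.

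Among AMPA genes the start regions lay close together in fold enrichment, from 6.90 to 7.73, and were spread more widely in tags. The start of GRIA2, which encodes the subunit that sets calcium permeability, was a single summit in a region of 863 bp (chr4:157220068-157220930), at 7.73 by fold enrichment and with 966 tags (906 to 1029). GRIA4, which encodes GluA4, followed with 782 tags (728 to 839) and a fold enrichment of 7.46 at chr11:105609337-105611168. GRIA1, which encodes GluA1, had 492 tags (449 to 537) and a fold enrichment of 7.51 at chr5:153490095-153491837, and GRIA3, which encodes GluA3 and lies on the X chromosome, had 385 tags (347 to 425) and a fold enrichment of 6.90 at chrX:123182993-123185347. These 4 tag intervals did not overlap, so the order GRIA2, GRIA4, GRIA1, GRIA3 stood outside counting error, while the fold enrichments of GRIA1, GRIA2 and GRIA4 differed by less than 0.3. Tags were not adjusted for the number of X chromosome copies per cell, so the place of GRIA3 holds for raw tags only. The order by tags and the order by fold enrichment agreed on GRIA2 as highest and GRIA3 as lowest. The background recovered with each summit was 124 tags at GRIA2, 104 at GRIA4, 64.6 at GRIA1 and 55.0 at GRIA3, in the same order as the tags.

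Among kainate genes the start regions were more uneven. GRIK4 had the strongest: its first start region, at chr11:120510938-120511937, had a fold enrichment of 8.91 and 636 tags, and a second, 52.5 kb into the gene at chr11:120563709-120565405, had 7.81 and 679 tags. GRIK2, which encodes GluK2, had 7.57 and 518 tags at chr6:101392972-101394408, and GRIK1, which encodes GluK1, had 6.34 and 531 tags at chr21:29938767-29940628. The starts of GRIK1 and GRIK2 stood between those of GRIA3 and GRIK4 by tags and could not be told apart from each other, since the interval of GRIK1 was 487 to 578 and that of GRIK2 was 474 to 565. GRIK3, which encodes GluK3, had a fold enrichment of 3.49 with 303 tags (270 to 339) at chr1:37033934-37035004. GRIK5, which encodes GluK5, a common partner of GluK2, had the weakest, with 2.75 and 159 tags (135 to 186) at chr19:42069728-42070493. Among all start regions of the list the start of GRIK5 stood at the percentile 2.11 by fold enrichment and 4.18 by tags, and that of GRIK3 at 6.42 and 16.3. Among the accessible starts of genes of similar length (within 25%) the same fold enrichments stood at percentiles 0.738 of 1761 genes for GRIK5 and 1.88 of 746 genes for GRIK3, against 23.4 to 49.9 for the other 7.

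**Figure D1:**
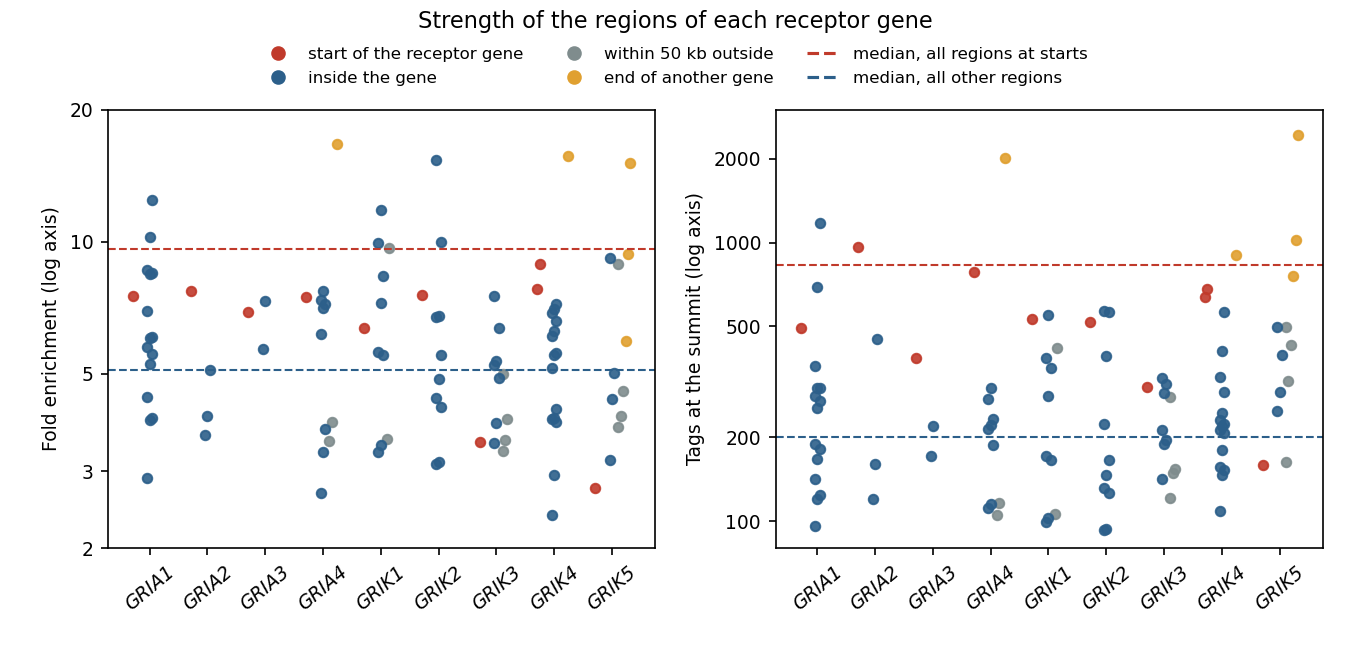
Fold enrichment (left) and tags at the summit (right), both on log axes, of each region of the 9 receptor genes, coloured by where the region lies. The dashed lines are the medians of all regions at starts (9.63, 834 tags) and of all other regions (5.11, 201 tags). The start regions of GRIK3 and GRIK5 sit lowest among the start regions, and only the start of GRIA2 is above the line for starts, in tags.

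By fold enrichment the start was often not the strongest site of its own gene. In 7 of the 9 genes a region inside the gene or in its flank, away from the ends of every protein-coding gene, had a higher fold enrichment than the start; GRIA2 and GRIK4 were the exceptions. By the same measure 40.1% of the 3950 genes with an accessible start that are at least as long as GRIK5 had such a region. By tags it was so in 5 of the 9 (GRIA1, GRIK1, GRIK2, GRIK3 and GRIK5), against 23.2% of those 3950 genes. Only in GRIA1 (1179 tags against 492 at the start) and GRIK5 (498 against 159) was this beyond counting error. In GRIK1 (552 against 531), GRIK2 (567 against 518) and GRIK3 (327 against 303) the tag intervals overlapped. Neither share is matched for length, and every receptor gene but GRIK5 is at least 146.0 kb long. Genes of similar length to GRIK5 had a median of 2 regions in the body, and those similar to GRIK2 had 13. Longer genes thus hold more regions that can exceed the start, and a length-matched share was not computed. GRIK5 was the extreme case, since its start was the lowest of the 12 regions of its window by fold enrichment and by tags.

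GRIA1 held the most regions of the AMPA genes, and all 16 lay inside the gene. Its window had 3.77 regions per 100 kb (2.16 to 6.12), and its body stood at the percentile 93.2 among 592 protein-coding genes of similar length, whose median body held 7 regions. The strongest region lay 80.8 kb downstream of the nearest start, at chr5:153572242-153573571, with a fold enrichment of 12.4 and 1179 tags (1113 to 1248), a percentile of 98.0 by fold enrichment among the 51232 regions of the list that are at no start. Its tag count was above that of the start of GRIA1 itself by far more than counting error. The next strongest lay 285.8 kb downstream, near the distal end of the gene, with a fold enrichment of 10.3 and 694 tags, and the third 59.6 kb downstream with 8.61 and 300 tags. No gap between summits inside GRIA1 exceeded 36.2 kb, and no region lay in either flank.

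GRIA2 held 4 regions, all inside the gene, and none in its flanks. Its window therefore had a low density, 1.63 per 100 kb (0.443 to 4.16), at the percentile 22.6 of 1435 genes of similar length. Its body was close to the middle of them (percentile 59.7), since their median body held 3 regions. A second region directly downstream of the start, 1.90 kb from the nearest listed start at chr4:157221641-157222991, had 452 tags but a fold enrichment of only 3.62. Both were read against the same recovered background of 124 tags, so the pair shares its local background. The remaining 2 regions lay 80.8 kb into the gene, with a fold enrichment of 5.11 and 161 tags, and 143.4 kb into it, near the 3′ end, with 4.00 and 120 tags. Between the pair at the start and the first of these, 77.6 kb held no summit.

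GRIA3 had the fewest regions of the 9 genes. Its window of 406.6 kb held 3, or 0.738 per 100 kb (0.152 to 2.16), and its body stood at the percentile 11.7 of 624 genes of similar length. The X chromosome is poor in regions in this list: long protein-coding genes on X had a median window density of 1.21 per 100 kb, against 2.56 for long genes overall. Among the 28 X-linked genes of similar length the body of GRIA3 stood at the percentile 35.7. Beside the start there was a region 79.1 kb into the gene, with a fold enrichment of 5.69 and 171 tags, and one 297.8 kb into it at chrX:123481957-123482527, with 7.31 and 220 tags. The 218.2 kb between these 2 regions held no summit, which is 71.2% of the gene. All 3 regions of GRIA3 had the highest score that the list gives, 1000.

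GRIA4 held 12 regions, 2.54 per 100 kb (1.31 to 4.44), and its body was in the middle of genes of similar length (percentile 52.5). The strongest region of its window, with a fold enrichment of 16.7 and 2004 tags, lay beyond the gene at the end of MSANTD4 and is the highest fold enrichment among the 99 regions. The end of another gene means here either of its outer ends or a listed start. Within GRIA4 the strongest was 304.5 kb downstream of the nearest start at chr11:105914721-105915632, with 7.71 and 232 tags, slightly above the start at 7.46. The region 327.2 kb downstream had 7.38 and 300 tags. A weak region 1.29 kb downstream of the nearest start had a fold enrichment of 2.68 with 275 tags over a background of 102. After this pair at the start, 106.9 kb of the gene held no summit.

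**Figure D2:**
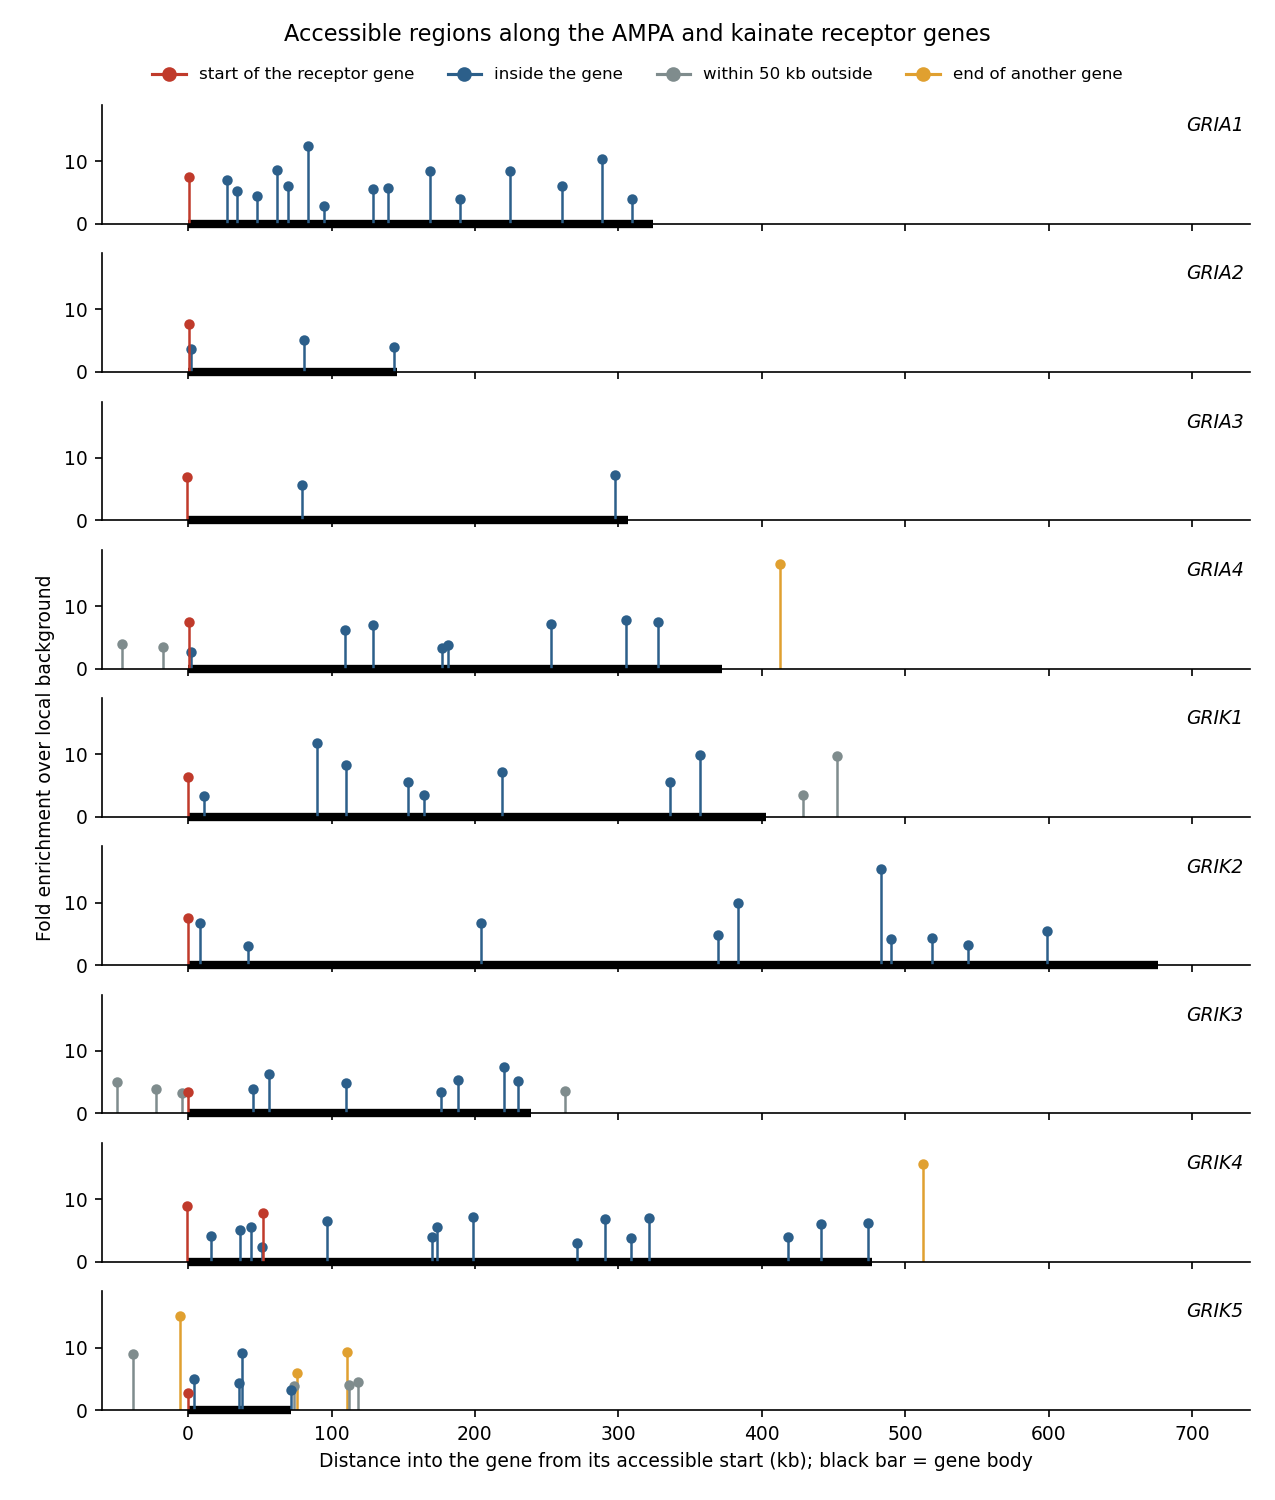
Each region of the 9 genes at its distance in kb from the accessible outer end of the gene (horizontal axis), with its fold enrichment as the height of the line, coloured by where the region lies. The black bar is the gene body. GRIA1 has regions along the whole gene and GRIK4 along most of it, with a longest gap of 96.4 kb. GRIA3 has 3 in all, and the tallest lines of GRIA4, GRIK4 and GRIK5 stand at the ends of other genes.

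GRIK1, on chromosome 21, held 11 regions, 2.19 per 100 kb (1.09 to 3.91), close to the middle of genes of similar length (body percentile 47.5). Several had a higher fold enrichment than its start, which stood at 6.34 with 531 tags over a background of 82.9. By tags only the region 357.1 kb into the gene exceeded the start, and within counting error. The region 90.1 kb into the gene at chr21:29849403-29850195 had a fold enrichment of 11.8 and 386 tags, over a background of 31.8. That is a percentile of 97.2 by fold enrichment among regions at no start. The region 357.1 kb into the gene at chr21:29582563-29584062 had 9.91 and 552 tags, and one in the flank beyond the far end of the gene had 9.67 and 418 tags. The last of these lay away from the end of any protein-coding gene.

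GRIK2 is the longest of the 9 genes, at 676.4 kb, and was among the sparsest. It held 11 regions, 1.42 per 100 kb (0.707 to 2.54), where genes of similar length had a median of 13 in the body (percentile 28.7 of 195 genes). One of its regions had the highest fold enrichment of all 84 regions that lay inside the 9 genes or in their flanks, though not the most tags, which were at GRIA1. It lay 477.6 kb downstream of the nearest start at chr6:101876243-101877328, as a single summit, with a fold enrichment of 15.3 and 567 tags (521 to 616), a percentile of 99.6 by fold enrichment and 92.6 by tags among regions at no start. The region 378.2 kb downstream, also a single summit, had 10.0 and 392 tags. A region 3.02 kb downstream of the second listed start had 6.78 and 562 tags, as many as the first start within counting error. That second start, 5.28 kb into the gene, had no summit within 1 kb. The longest stretch without a summit was 164.9 kb.

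GRIK3 held 12 regions, or 3.54 per 100 kb (1.83 to 6.18), none of them above a fold enrichment of 7.50. Of the 7 inside the gene and away from its start, 4 were above the median of regions at no start (5.11), so that these were ordinary for their kind. The strongest 2 lay 220.2 kb into the gene, at chr1:36813955-36814854 with a fold enrichment of 7.50 and 327 tags, and 56.5 kb into it, at chr1:36977448-36978408 with 6.36 and 310 tags. The third strongest lay 187.9 kb into the gene with 5.34 and 289 tags. Its flanks held 4 regions, among them 1 at -3.90 kb, upstream of the start, at 3.32 by fold enrichment and with 279 tags. The tags of that region and of the start (303) differed by less than counting error. By count, the body of GRIK3 stood at the percentile 73.6 of 846 genes of similar length.

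GRIK4 held the most regions of any of the 9 genes, 18, or 3.12 per 100 kb (1.85 to 4.93), and its body stood at the percentile 81.5 of 378 genes of similar length. The strongest in the window, with a fold enrichment of 15.7 and 905 tags, lay outside at the shared end of TBCEL and TBCEL-TECTA. Inside GRIK4 its 2 starts were the strongest sites. By fold enrichment the strongest region elsewhere in the gene lay 146.2 kb downstream of the nearest start, with 7.19 and 408 tags. The next by fold enrichment lay 268.7 kb downstream with 7.03 and had more tags, 564. The lowest fold enrichment among the 99 regions, 2.38, belonged to a region at -1.19 kb from the second start, read against a background of 86.9 tags and with 208 tags of its own. The neighbouring start region was read against a background of 86.1 tags.

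GRIK5 is the shortest of the 9 genes, at 71.9 kb, on chromosome 19, and had the densest window. It held 12 regions, 6.98 per 100 kb (3.61 to 12.2), which stood at the percentile 98.1 of 2150 genes of similar length. The 2 strongest lay at the ends of other genes: ZNF574, at 15.1 and 2426 tags (the highest count among the 99 regions), and RABAC1, at 9.35 and 1024 tags. Without regions at the ends of other genes the density was 5.24 per 100 kb and still the highest of the 9. The body alone, with 5 regions, had 6.96 per 100 kb (2.26 to 16.2), the percentile 95.5, or 97.0 among the 67 genes of similar length on chromosome 19. Inside the gene the strongest region lay 37.6 kb from the start at chr19:42032267-42032967, with 9.19 and 498 tags, 3 times the tags of the start. The region at the end of ZNF574 lay at -5.82 kb from the start of GRIK5.

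Ordered by regions per 100 kb, the genes ran GRIK5, GRIA1, GRIK3, GRIK4, GRIA4, GRIK1, GRIA2, GRIK2 and GRIA3. The intervals of all neighbours in this order overlapped. The interval of GRIK5 did not overlap those of GRIK2 and GRIA3, whereas all other pairs overlapped, GRIA1 and GRIA3 only at their edges. The family totals did not stand apart: AMPA genes had 2.26 regions per 100 kb (1.57 to 3.14) and kainate genes 2.70 (2.08 to 3.45). In the bodies alone the values were 2.79 and 2.62, the reverse order, again with overlapping intervals. All 9 together had 2.53 per 100 kb (2.05 to 3.08), beside a median of 2.56 for the windows of 5865 protein-coding genes of at least about this length.

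**Figure D3:**
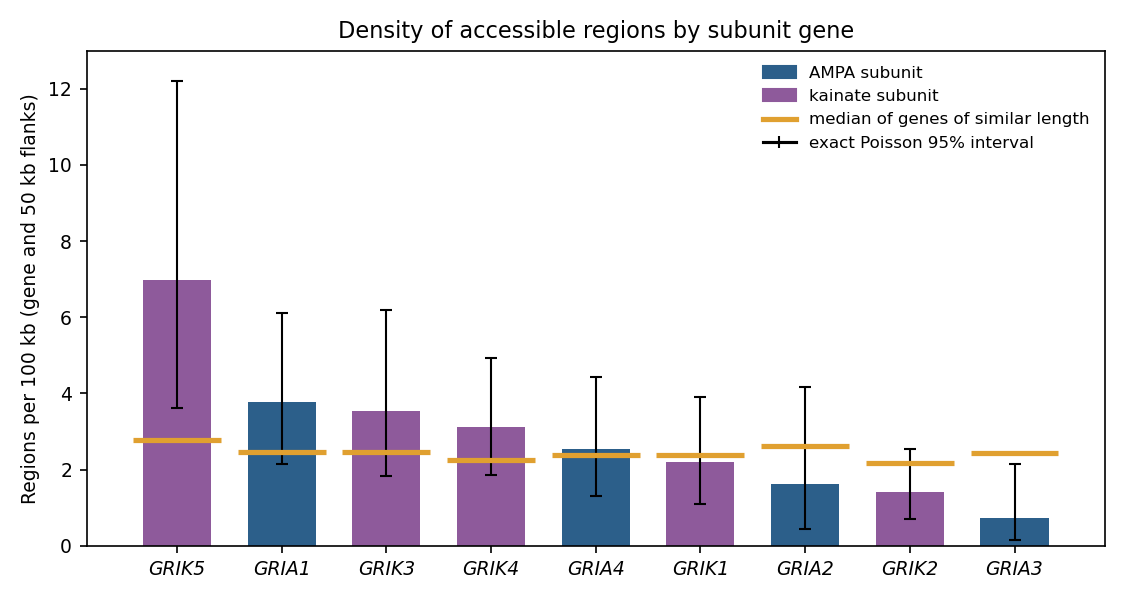
Regions per 100 kb of the window (gene and 50 kb beyond each end) of each gene, with exact Poisson 95% intervals as error bars; the orange lines are the medians of protein-coding genes of similar length. GRIK5 is highest at 6.98, with its interval above its line, and GRIA3 lowest at 0.738, with its interval below its line.

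The 99 regions were ordinary in strength as a set. Their median fold enrichment was 5.57 (5.01 to 6.34, the interval of a median from ranks), with a range of 2.38 to 16.7, against 5.60 for all regions of the list. AMPA regions had a median of 6.06 and kainate regions 5.42. Of the 99, 10 lay at the genes' own starts, 72 elsewhere inside the genes with a median of 5.54, 12 in the flanks with a median of 3.91, and 5 at the end of another protein-coding gene. Those 5 belong to the start regions of the list. Of the 72 inside, 43 were above the median of regions at no start, 5.11. None of the 84 regions inside or in the flanks had a summit within 1 kb of the end of a noncoding gene in the RefSeq table. Recovered tags ran from 93 to 2426 with a median of 232, and the interval of the weakest, in GRIK2, was 75.1 to 114 tags.

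The density of regions was compared along the genes in steps of 100 kb from the accessible end, and no step stood apart. Over all 9 genes the first 100 kb held 32 regions, 3.67 per 100 kb (2.51 to 5.18), including 6 own starts whose summit lies in the gene body, and 26, or 2.98 (1.95 to 4.37), without them. The next 100 kb held 18, or 2.41 (1.43 to 3.81), in 8 genes, and the next 11, or 1.72 (0.859 to 3.08), in 7. Between 300 and 400 kb there were 9, or 2.23 (1.02 to 4.24), in 6 genes. Between 400 and 500 kb there were 5, or 2.77 (0.901 to 6.47), in 3 genes. GRIK2 alone reached beyond that, with 3 regions between 500 and 600 kb (3.00 per 100 kb, 0.619 to 8.77) and none in its last 76.4 kb. The intervals of all these steps overlapped. Genes contributed unequally: GRIA1 had 8 of the 32 regions of the first step and GRIK4 6, while GRIA3 had 1.

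The listed promoters of 7 of the 9 genes, 14 in all, were read for base composition and for the words given above. The run shown for GRIA2 belongs to the last of its 3 listed starts; it was chosen after its values were seen, because the summit lies within it. That run and the run of GRIK3 were both 74.3% G and C, whereas the runs of the other 2 starts of GRIA2 were 51.0% and 46.3%. The listed start nearest to the summit of GRIA2 is the one with 51.0%: the summit lies at 135 bp from it, and at -152 bp from the start shown. The run of the first start of GRIK4 was 84.3% G and C, a percentile of 99.6 among 35116 promoters, whose median was 58.7%. The run of GRIK5 was 69.0% G and C, but its CpG content was low, at 0.358 of that expected from its bases against a median of 0.579 for all promoters. GRIK3, the other weak start, had 0.970. The 2 weak starts therefore differed in CpG content, and both were rich in G and C.

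The GRIA2 run held both RE1 words. They are the stretch from base 24 to 38 of the sequence printed above, with CTGTCC at bases 24 to 29 and GGTGCTG at 32 to 38, and so on the opposite strand read CAGCACCNNGGACAG. The spaced word was found, on either strand, in 18 of 35116 promoters (0.0513%); it was added to the search after the 2 matches had been seen side by side. Separately, CAGCACC alone was in 7.75% and GGACAG in 20.5% of promoters, and both in 1.98%. An RE1 element in the promoter of GRIA2 has been described and is background here. The summit of the start region lay at base 99 of the run, directly at a second GGACAG at bases 95 to 100, and the whole run lay inside the accessible region.

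The other words were unevenly spread and short enough to be common. GGGCGG was in 6 of the 14 promoters, of GRIA2, GRIK3, GRIK4 and GRIK5, and in 45.0% of all promoters. Some runs of GRIA2 and of GRIA4 overlap, so the 14 are not independent. The GGGCGG at bases 294 to 299 of the second GRIA2 run is the same site as that at bases 7 to 12 of the run shown. The E-box word CAGCTG was in 3 of the 14 and 17.9% of all; the first start of GRIK4 held it at 3 places, beginning at bases 92, 170 and 261, and its second start once, at base 40. CAGATG, the other E-box word, was in none of the 14 and in 14.7% of all promoters. TGACG was in 3 of the 14, of GRIA4 and GRIK2, and in 24.6% of all, and TATAAA was in none of the 14 and in 11.5% of all.

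The proteins that work with these receptors were examined at their starts in the same way. Of 15 genes for AMPA receptor auxiliary subunits, which control trafficking and gating, 11 had an accessible start, a share close to the 69.8% of all protein-coding genes, with a median fold enrichment of 6.11. The counts of the smaller groups below are to be read against the same share. The 4 without were CACNG5 and CACNG8, which encode transmembrane AMPA receptor regulatory proteins, SHISA7 and GSG1L. CACNG7 had the most regions in its window of this role, 14, but only 1 of them lay in the gene itself. CACNG3 and GSG1L, as well as FRRS1L, had the fewest in their windows, 3 each. Such window counts, here and for the groups below, are not adjusted for gene length. Both kainate auxiliary genes, NETO1 and NETO2, had an accessible start, at fold enrichments of 3.99 and 8.15. All 7 genes for scaffolds and trafficking partners had one, with a median of 9.62. DLG2, which encodes the scaffold PSD-93, had the most regions of them, 70 in its window and 67 in the gene itself, which is 2173 kb long, and a start at 16.0, while PICK1 had the fewest, 6. ADARB1, which encodes the enzyme that edits GRIA2 RNA, had an accessible start at 7.89 with 663 tags. The secreted organisers C1QL2 and C1QL3, which bind kainate receptors, had theirs at 5.21 and 4.74.

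The NMDA receptors are a further family of glutamate-gated channels. All 7 NMDA receptor genes had an accessible start, with a median fold enrichment of 5.12, against 7.46 for the 9 AMPA and kainate genes. Single NMDA genes ran from 3.03 to 8.31, inside the range of the 9 genes, 2.75 to 8.91. The 2 sets were not matched for gene length. GRIN2B had the most regions of the NMDA genes, 21, and GRIN2C the fewest, 3. The median start of the scaffold genes (9.62) thus lay near the median of all starts (9.63), and every receptor gene had its start below that. Single scaffold genes ran from 4.34 to 16.0, so their range overlapped that of the receptor genes.

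**Figure D4:**
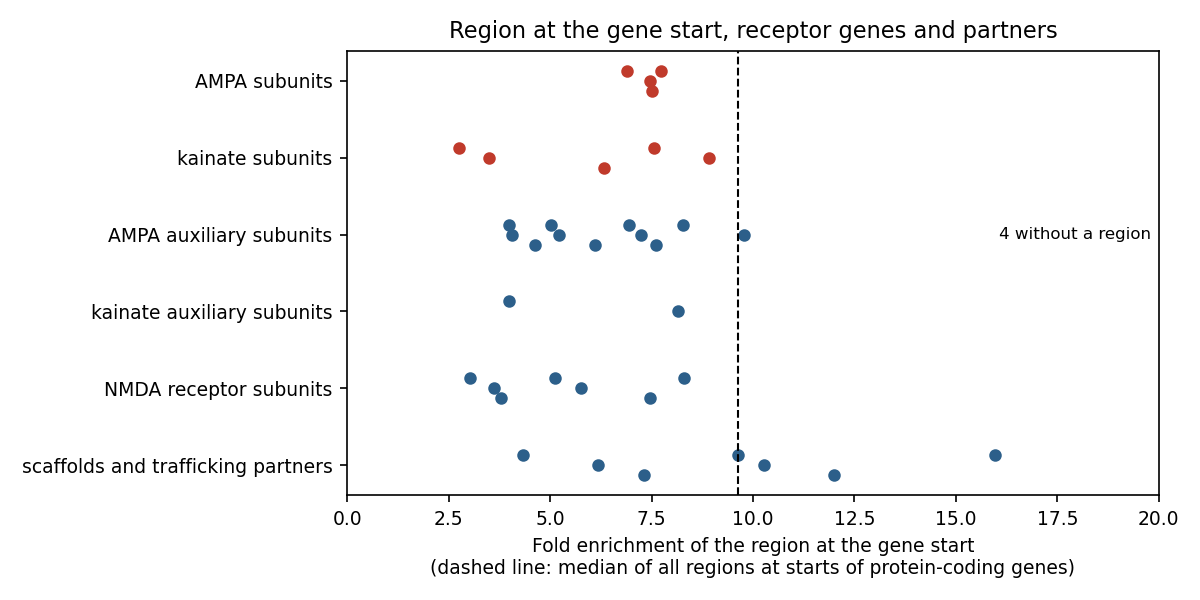
Fold enrichment of the region at the start of each gene, by role; each point is 1 gene, and the dashed line is the median of all regions at starts (9.63). The 9 receptor genes lie between 2.75 and 8.91, left of the line, and 4 AMPA auxiliary genes have no region at the start.

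The neuronal label of the cells was set against marker genes in the same list. All 10 neuronal markers had an accessible start. Of the glutamatergic markers SLC17A6 had one and SLC17A7 had none, and all 3 GABAergic markers had one. Of 7 astrocyte and oligodendrocyte markers 3 had an accessible start, and of 5 pluripotency markers 2, not including POU5F1 and NANOG. These shares are to be read against the 69.8% of all protein-coding genes. In a bulk assay a site open in few cells and one weakly open in all cells cannot be told apart, and how other cells contribute to the regions above was not tested. Accessibility was the only measurement used here, so expression of the receptor genes is not described.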

How the data were processed

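ATAC-seq was measured in 3 samples of 1 group, and the authors deposited 1 peak list for all of them, named in the labels as an IDR optimal set (IDR, irreproducible discovery rate, keeps peaks ranked alike across samples). The build is hg38, per the submitters' processing notes. The aligner, peak caller, filters and depth of each sample are not given in the sources used here. The deposited fold enrichment is a ratio per summit, the deposited −log10 p and −log10 q values stand beside it, and the deposited score runs from 540 to 1000, with its scale not given in the sources used here.

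The 145092 entries were merged by identical bounds into 65234 regions covering 61.2 Mb, each with the values of its entry of highest −log10 p. Tags and background were recovered from the ratio, read as tags plus 1 over background plus 1, and the −log10 p, read as a Poisson tail. A whole tag count matched the −log10 p of every entry to within 0.00079, whereas the next whole number missed by a median of 0.266. Entries had 58 to 3783 tags. Libraries were amplified by PCR, so tags are not independent molecules.

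Gene bodies and promoters came from RefSeq tables for GRCh38.p14, in which 15843 of 20037 protein-coding genes have a listed start. GRIA3 and GRIK1 were measured from the outer end that has a region. Exons and introns were not annotated. A percentile is the share of compared values below, ties split evenly. The code was tested on simulated data, with Python 3.11.15, numpy 2.4.6, scipy 1.17.1 and pandas 2.3.3.

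By rule, the start region and the 3 regions of highest fold enrichment were named for each gene, and partner genes where the start was not accessible or regions were most or fewest in the role. Genes, lists and motif words were chosen with earlier results of these data known, and further regions, partners and markers were named after their values had been seen. A few genes and regions under this naming rule are not reported here. Alternatives changed the window, the threshold, the counting of entries, the distance to a start and the treatment of ends of other genes.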

Additional observations from a re-analysis of the deposited data

How the results depend on the processing

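No paired analysis was possible because the list pools the 3 replicates and gives no value for any of them; leaving out a replicate was impossible on the same ground. Of 83 recomputed values, 29 belong to the 4 main results, and 7 of these moved. Counting every summit entry gave 199 entries in the 9 windows, 5.08 per 100 kb, with a median fold enrichment of 3.87. Keeping only the highest score gave 1.84 regions per 100 kb and a median fold enrichment of 6.75. Keeping only regions above the median fold enrichment left 49 regions, 1.25 per 100 kb. These settings change how many entries count by construction. Accessible starts numbered 9 with a summit within 500 bp or 2 kb, or any overlap, 8 with only the highest score and 7 above the median fold enrichment. For single genes, 7 of 54 densities moved, all with every entry counted. GRIK5 came first, GRIA1 the second, GRIK2 the eighth and GRIA3 last in each of the 7 settings in which the 9 genes were ordered, while the genes between changed places. Pooled tags set the precision of single regions, and the depth of each replicate is unknown.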
